A study of Mus musculus with 12 samples.

Results

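Gene expression in the lumbar spinal cord of 9 model mice of ALS (amyotrophic lateral sclerosis) was compared with that in 3 healthy mice by RNA sequencing, and the genes that differed in every ALS group whatever the mice had received were described. All 12 libraries of the series entered the comparison. The libraries were assigned to groups by their labels. Group H held healthy wild-type mice (libraries H1, H2 and H4). Group P held ALS model mice given phosphate-buffered saline, by feeding according to the series text (P66, P67 and P74). Group C held ALS model mice treated with manganese-doped carbon dots, particles that act like superoxide dismutase according to the series title (C79, C84 and C85). Group E (E75, E77 and E90) held ALS model mice and was read as the group given edaravone, an ALS drug that scavenges free radicals. The series text lists the code E but describes edaravone under the code D, so that reading rests on elimination. The mouse number follows the group letter, 1 library is 1 mouse, and each group of 3 was lumbar cord homogenised whole. The strain, the mutation that makes the model, age, sex, dose and stage of disease are not stated in the labels or the series text. For that reason no targeted gene could be checked against the labels.

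In ALS the motor neurons of the cord and brain degenerate. In mouse models of the disease the microglia around them, the resident macrophages of the nervous system, leave their resting state for one called disease-associated, in which the receptor Trem2 and its adaptor Tyrobp induce genes for phagocytosis and lipid handling. Astrocytes become reactive at the same time and raise intermediate filaments and acute-phase proteins. Fast motor neurons, which drive fast-contracting muscle fibres, are known to be lost before slow ones.

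Each library held between 16.8 and 19.8 M (mega) recovered reads, and replicates correlated at 0.966 to 0.993 over the genes tested. Oligodendrocyte, astrocyte, motor neuron and Hox genes of the lumbar level were present in every library, and the forebrain genes Emx1 and Tbr1 stayed at or below 0.136 FPKM (reads per kilobase of exon and per M mapped reads). The forebrain gene Neurod6 lay between 0.693 and 2.05 FPKM. All 12 libraries carried RNA of the Y-linked gene Ddx3y at 15.1 to 22.7 FPKM and almost none of Xist, at most 0.0213 FPKM. On the first principal component the healthy libraries lay between -46.3 and -30.3 and the ALS libraries between -4.72 and 30.7. The cord level sampled and the tissue around it were not equal among libraries. The mean log2(FPKM + 1) of 9 caudal Hox genes was lowest in H4 (0.318), C84 (0.545) and P66 (0.86), and the other libraries lay between 1.26 and 2.71. The mean of 12 skeletal muscle genes was 7.19 in H1, 4.06 in H2 and 1.93 in H4, against 0.727 to 3.52 in the ALS libraries. Their part in the results was not tested beyond the refits given with them.

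Of 18118 genes tested, 2973 were higher in the ALS libraries (16.4%) and 760 lower (4.19%). The difference was the mean of P, C and E minus H on the log2(FPKM + 1) scale, called at an adjusted p under 0.05. Differences of at least 1 on that scale, 2-fold, were reached by 432 of the higher genes (2.38%) and 29 of the lower ones (0.160%). All 9 ALS libraries lay above the 3 healthy ones in 2555 genes (14.1%) and below them in 476 (2.63%). Against H alone, P had 2216 genes higher (12.2%) and 591 lower (3.26%), C 1313 (7.25%) and 192 (1.06%), and E 2003 (11.1%) and 390 (2.15%). The median difference of all genes tested was 0.07. A gene was counted as consistent when P, C and E each differed from H in the same direction at that threshold along with the pooled difference. 1002 genes were consistent (5.53%), 907 higher (5.01%) and 95 lower (0.524%). A 2-fold difference or more was reached by 346 of the former (1.91%) and 11 of the latter (0.0607%). Of the pooled calls, 767 higher (4.23%) and 206 lower (1.14%) passed in exactly 2 of the 3 groups, and 926 higher (5.11%) and 275 lower (1.52%) in exactly 1. In 903 of the higher (4.98%) and 91 of the lower consistent genes (0.502%), all 9 ALS libraries lay beyond all 3 healthy ones. The 3 groups were each set against the same 3 healthy mice, so this count is the one the rule fixes and not 3 independent findings. The smallest p that 220 splits allow in the exact two-sided permutation test of 9 against 3 libraries is p = 0.00455. A lack of overlap did not always give this smallest value. Lcn2 and Ifit3, for example, had no overlap but stayed above it.

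A test that left the healthy mice aside asked whether P, C and E differed from each other. It called 5 genes (0.0276%), and 1755 genes (9.69%) had an unadjusted p under 0.05. Among the 1002 consistent genes 52 had such a p (5.19%). The rule for consistent genes leaves out any gene in which P, C or E did not pass against H. It thereby removes genes with a group near H, so a lower share is partly built in. No conclusion on the treatments is drawn from it. Missing the threshold in the test between P, C and E does not show that the treatments left a gene alike. The median 95% confidence interval of the pooled difference itself reached 0.207 to either side. On simulated data with all 3 ALS groups shifted together, 93 of 100 genes changed by 2-fold were called in the pooled comparison and 56 of 100 were counted as consistent. The changed genes were drawn from those with a mean of 100 reads or more, and all genes were given the same dispersion. Recovery of genes with fewer reads, or with uneven muscle or cord level among libraries, was not tested.

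**Figure D1:**
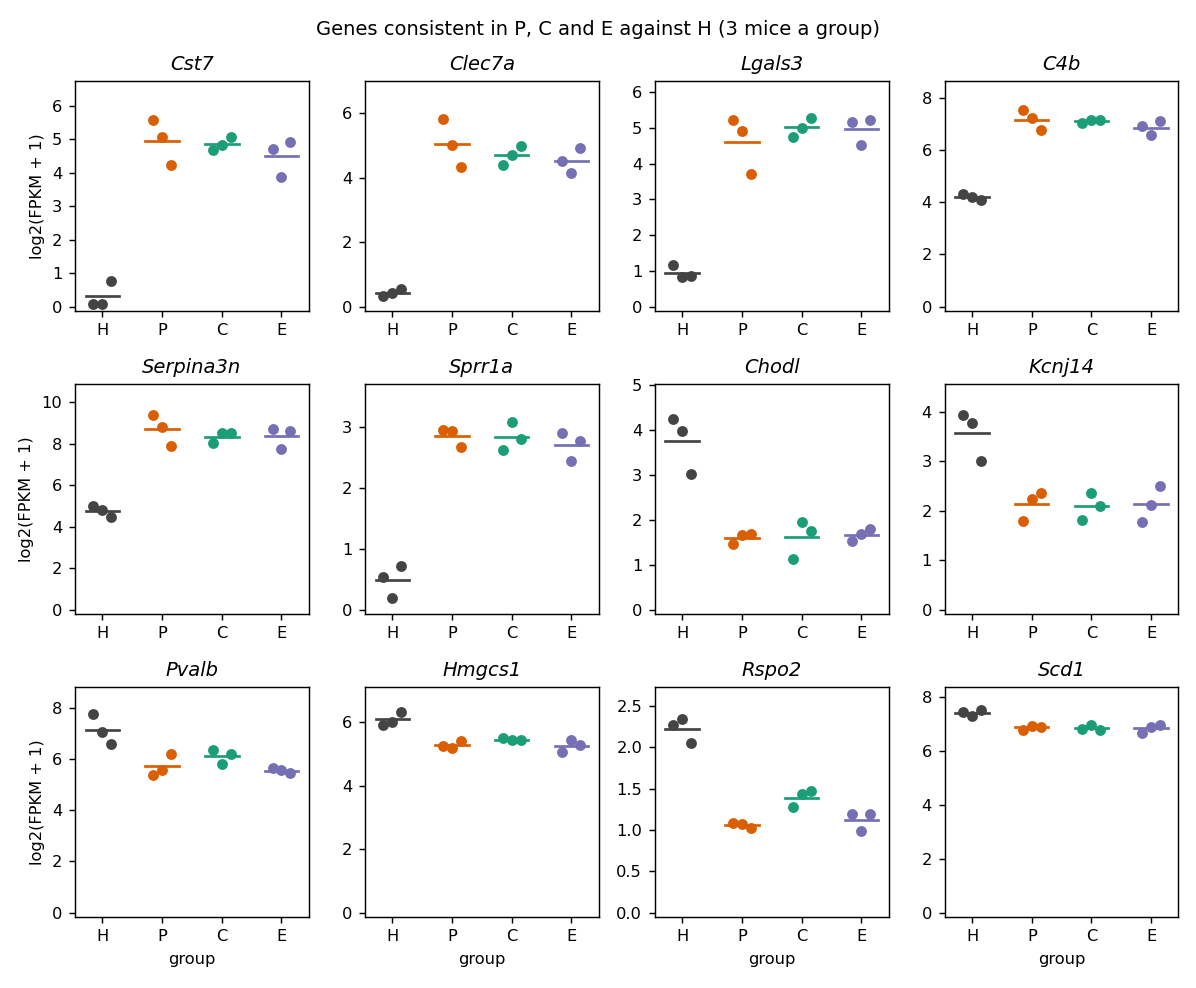
Levels of 12 genes that were consistent in P, C and E, as log2(FPKM + 1), with 1 point per mouse, a bar at the group mean and each axis including 0. In every panel the 9 ALS mice lie on one side of the 3 healthy mice, from Cst7 (median 27.2 FPKM in ALS, at most 0.704 in H) to Chodl (median 2.2 FPKM in ALS, at least 7.19 in H).

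Genes of disease-associated microglia rose in all 3 ALS groups. Of 28 genes of that state, 26 were higher and 23 consistently so, against 16.4% and 5.01% of all genes. In 25 all 9 ALS libraries lay above all healthy ones, against 14.1% of all genes. The median difference of the 28 was 2.07, and it was 2.16 in P, 2.04 in C and 1.89 in E. The 2 that were not called were Ank at 0.22 and the ferritin heavy chain Fth1 at -0.18. Between 24 and 26 were called higher when any 1 library was left out, and 23 with the skeletal muscle score of each library as a covariate. In whole cord, more cells of a type and more RNA per cell cannot be told apart, here or in any list below.

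The letters bound by PU.1, a transcription factor of the myeloid lineage, are shown in 3 promoters of this list. These are the 250 bases before the start of Trem2, Cd44 and Axl (RefSeq, GRCm38.p6), written in the direction of the gene, with the letters GAGGAAG, here as their reverse complement, in capitals.
Trem2: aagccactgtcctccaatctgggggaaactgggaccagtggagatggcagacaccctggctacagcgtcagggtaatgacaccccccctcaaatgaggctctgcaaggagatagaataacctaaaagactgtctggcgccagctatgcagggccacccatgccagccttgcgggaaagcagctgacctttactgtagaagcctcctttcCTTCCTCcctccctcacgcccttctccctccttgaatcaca
Cd44: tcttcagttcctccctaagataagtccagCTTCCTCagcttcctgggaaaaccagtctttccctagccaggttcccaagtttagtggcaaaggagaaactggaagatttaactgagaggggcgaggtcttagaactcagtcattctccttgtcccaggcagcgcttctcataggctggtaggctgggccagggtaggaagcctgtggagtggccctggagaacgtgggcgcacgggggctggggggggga
Axl: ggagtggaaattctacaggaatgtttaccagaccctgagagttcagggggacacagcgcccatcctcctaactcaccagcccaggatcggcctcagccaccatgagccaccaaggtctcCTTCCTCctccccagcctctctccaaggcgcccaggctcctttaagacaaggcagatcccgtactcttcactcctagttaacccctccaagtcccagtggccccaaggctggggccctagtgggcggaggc
They lie at chr17:48346151-48346400 on the plus strand, chr2:102901666-102901915 on the minus strand and chr7:25788734-25788983 on the minus strand. The capitals begin 41, 221 and 131 bases before the start. On either strand, GAGGAAG was in 20.7% of 29 promoters of this list and in 18.4% of 886 promoters of consistently higher genes, against 10.6% of 32851 promoters of all genes and 9.52% of 84 of consistently lower ones. A match of letters is a description and not a site.

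The 3 genes behind these promoters, which were named after their values were seen, all rose in each ALS group. Trem2, the lipid receptor of microglia, stood at 1.81, 2.07 and 2.82 FPKM in H1, H2 and H4 and at 8.81 to 20.5 (median 14.7) in the ALS mice, a difference of 2.27 ± 0.19 (SE, adjusted p = 5.71e-05). Cd44, an adhesion receptor for hyaluronan, went from 1.60 to 1.71 FPKM in H to 5.23 to 17.4 in ALS, 1.84 ± 0.24 higher (adjusted p = 0.000551). Axl, a receptor through which dying cells are engulfed, lay at 10.8 to 14.8 FPKM in H and 24.7 to 51.4 in ALS, 1.38 ± 0.19 higher (adjusted p = 0.000682). In all 3 the lowest ALS mouse was above the highest healthy mouse.

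Cst7, which encodes the lysosomal protease inhibitor cystatin F (chromosome 2, 150570415 to 150578944 on GRCm38), had the largest difference of all consistent genes. It measured 0.0604, 0.0553 and 0.704 FPKM in H1, H2 and H4 and 13.6 to 46.7 (median 27.2) in the ALS mice, and rose by 4.46 ± 0.28 (adjusted p = 1.47e-05). H4 was the highest healthy mouse, and the lowest ALS mouse was far above it. Clec7a, the fungal sugar receptor dectin-1 (chromosome 6, 129461591 to 129472779), measured 0.248, 0.331 and 0.46 FPKM in H and 16.8 to 55.2 in ALS, a rise of 4.33 ± 0.25. Lyz2, a lysozyme of phagocytes, reached 111 to 508 FPKM in ALS from 9.41 to 15.5 in H. Gpnmb, a glycoprotein of lipid-laden phagocytes, rose by 4.03 ± 0.42, Lgals3 (galectin-3) by 3.91 ± 0.27, Cd68, a lysosomal membrane protein of macrophages, by 3.51 ± 0.28, and the integrin gene Itgax by 3.16 ± 0.24. Mpeg1, a pore-forming protein of phagocytes, rose by 3.11 ± 0.24 and belonged to none of the lists. The adjusted p of these genes ran from 8.51e-06 (Clec7a) to 0.00023 (Gpnmb).

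The further members of the list given here rose by less than its median of 2.07. Apoe, the lipid carrier, was already at 543, 615 and 643 FPKM in H and reached 1220 to 2400 in ALS, 1.62 ± 0.20 higher. Ctsd (cathepsin D) lay at 55.0 to 56.9 FPKM in H and 147 to 346 in ALS, 1.98 ± 0.20 higher. Spp1 (osteopontin), which is made by motor neurons as well as by phagocytes, rose by 1.20 ± 0.25 (adjusted p = 0.00711), but in E the difference did not pass (adjusted p = 0.0519). Lpl (lipoprotein lipase) had 11.9 FPKM in H1, 1.12 in H2 and 1.02 in H4, and 6.45 to 20.6 in ALS, so the groups overlapped through H1. Its pooled difference of 1.64 ± 0.51 had an adjusted p of 0.0454, passed in none of the single groups, and missed the threshold in 18 of 25 other settings.

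None of the genes that mark resting microglia was called lower. Of 16 tested, 13 were higher, 9 consistently, with a median difference of 0.80. Fcrls, an Fc receptor-like protein of microglia, rose by 2.99 ± 0.21 from 3.96 to 4.91 FPKM in H to 27.6 to 71.7 in ALS. Cx3cr1, the fractalkine receptor, rose by 1.45 ± 0.18. With the muscle score as a covariate 7 were higher. The markers P2ry12 and Tmem119 were named after their values were seen. P2ry12, an ADP receptor, stood at 8.68, 8.68 and 12.9 FPKM in H and 11.7 to 21.3 in ALS, and its difference of 0.47 ± 0.15 (adjusted p = 0.0462) missed the threshold in 16 of 25 other settings. Tmem119 differed by 0.33 ± 0.13 and was not called (adjusted p = 0.086). Healthy and ALS mice overlapped in both genes.

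Immune effector genes of microglia rose across receptors, enzymes and secreted proteins. Among the receptors, all 5 Fc gamma receptor genes tested were higher (median 2.24), with the inhibitory receptor Fcgr2b at 2.64 ± 0.29 and the shared signalling chain Fcer1g at 2.24 ± 0.24. 19 of 22 genes of pattern receptors and their NF-kB signalling were higher (median 0.70), among them the endotoxin co-receptor Cd14 (1.98 ± 0.16) and Tlr2 (1.83 ± 0.17). All 8 subunits and activators of the phagocyte NADPH oxidase, the enzyme that makes superoxide, were consistently higher, with a median of 1.26. Cybb, its catalytic subunit, measured 0.246, 0.132 and 0.189 FPKM in H and 2.81 to 8.40 in ALS, a rise of 2.29 ± 0.24 (adjusted p = 0.000183), and Cyba, its membrane partner, rose by 2.18 ± 0.24. Every ALS library was above every healthy one in all 8 genes, against 14.1% of all genes. With the muscle score as a covariate, 9 genes of pattern receptors and 5 of the oxidase were higher.

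Of 17 complement genes, 13 were higher and 11 consistently so (median 1.55). C4b, a component that tags surfaces, was among the most uniform genes of the whole comparison. It measured 19.1, 17.6 and 16.1 FPKM in H and 95.1 to 184 (median 138) in ALS, 2.85 ± 0.15 higher (adjusted p = 4.98e-06), and its rise was 10.4 times the SD over the 9 ALS mice. C1qa, a chain of the first component, rose from 32.4 to 43.7 FPKM in H to 121 to 304 in ALS. C3, the central component, rose in all groups, by 2.39 in P, 2.65 in C and 1.55 in E, with an unadjusted p of 0.00977 between the 3 groups that did not pass after adjustment. The receptor C3ar1 rose by 2.44 ± 0.20.

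The chemokine and cytokine list had 16 of 22 higher (median 0.90). Ccl3, a chemokine that draws monocytes, rose from 0.467, 0.641 and 0.68 FPKM in H to 7.09 to 22.7 in ALS (3.10 ± 0.21), and its neighbour Ccl4 by 2.48 ± 0.21. Genes of antigen display rose too, with 15 of 18 for MHC class I and the immunoproteasome (median 0.88) and 7 of 9 for MHC class II (median 1.43). B2m, the light chain of class I, went from 80.5 to 114 FPKM in H to 254 to 585 in ALS, 1.95 ± 0.25 higher. Cd74, the chain that guides class II to the lysosome, rose by 2.83 ± 0.32. H2-Aa, a class II chain, rose by 1.60 in P, 1.73 in C and 2.68 in E (unadjusted p = 0.0169 between them). Leaving out 1 library moved none of these counts by over 1.5 times, but with the muscle score as a covariate 7 chemokine and cytokine genes, 3 of class I and 4 of class II were higher.

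Lysosomal genes rose with 27 of 34 called, 18 of them consistently (median 0.78), and 16 with the muscle score as a covariate. Grn (progranulin), a lysosomal glycoprotein whose loss causes frontotemporal dementia in people, measured 14.3, 13.8 and 14.7 FPKM in H and 48.1 to 107 in ALS, 2.14 ± 0.20 higher (adjusted p = 8.49e-05). The healthy values lay within 1 FPKM of each other and no ALS mouse came near them. Laptm5, a lysosomal membrane protein of blood-derived cells, rose by 2.04 ± 0.20. Of 15 tested genes on the list of cholesterol efflux and lipid carriers, which also holds some with other roles, 12 were higher (median 1.16). Abca1, the pump that loads cholesterol onto apolipoproteins, rose by 1.57 ± 0.15 from 4.30 to 4.56 FPKM in H to 11.6 to 23.2 in ALS. Mylip, a ubiquitin ligase, rose by 1.16 ± 0.13.

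Genes of cholesterol synthesis and uptake went the other way. Of 24 tested, 18 were lower and none higher, against 4.19% of all genes lower. 13 were consistently lower of the 95 such genes in all. In 17 every ALS library lay below every healthy one, against 2.63% of all genes. The median difference was -0.49, and it was -0.46 in P, -0.51 in C and -0.54 in E. Leaving out any 1 library left the count within 1.5 times, but with the muscle score as a covariate 5 were lower. The promoter of Hmgcs1, the enzyme that makes HMG-CoA, holds the letters TCACNCCAC of a sterol regulatory element, which SREBP factors bind when sterol is low, and is shown with them in capitals (RefSeq, GRCm38.p6, chr13:119690101-119690350, plus strand, capitals beginning 137 bases before the start).
Hmgcs1: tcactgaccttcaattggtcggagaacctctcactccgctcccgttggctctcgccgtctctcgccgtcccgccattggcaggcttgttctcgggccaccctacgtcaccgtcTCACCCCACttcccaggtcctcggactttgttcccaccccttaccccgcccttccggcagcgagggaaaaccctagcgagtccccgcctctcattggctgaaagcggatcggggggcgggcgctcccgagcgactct
On either strand, these letters were in 1.05% of all 32851 promoters and in 1 of 19 promoters of the list (5.26%). They were in 1.19% of 84 promoters of consistently lower genes and 1.24% of 886 of consistently higher ones.

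Hmgcs1 measured 59.1, 63.7 and 79.4 FPKM in H1, H2 and H4 and 32.7 to 43.8 (median 41.4) in ALS, a fall of 0.75 ± 0.10 (adjusted p = 0.000575). Its ALS mice were close together and all below the healthy ones. Stard4, which carries cholesterol inside the cell, fell by 0.69 ± 0.08, Idi1, an isomerase of the pathway, by 0.86 ± 0.15, and the squalene synthase Fdft1 by 0.59 ± 0.08. Srebf2, which encodes the SREBP factor of this pathway, differed by -0.21 ± 0.12 and was not called. Outside the list, Scd1, a fatty acid desaturase, was among the most uniform lower genes, at 156 to 183 FPKM in H and 101 to 125 in ALS.

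**Figure D2:**
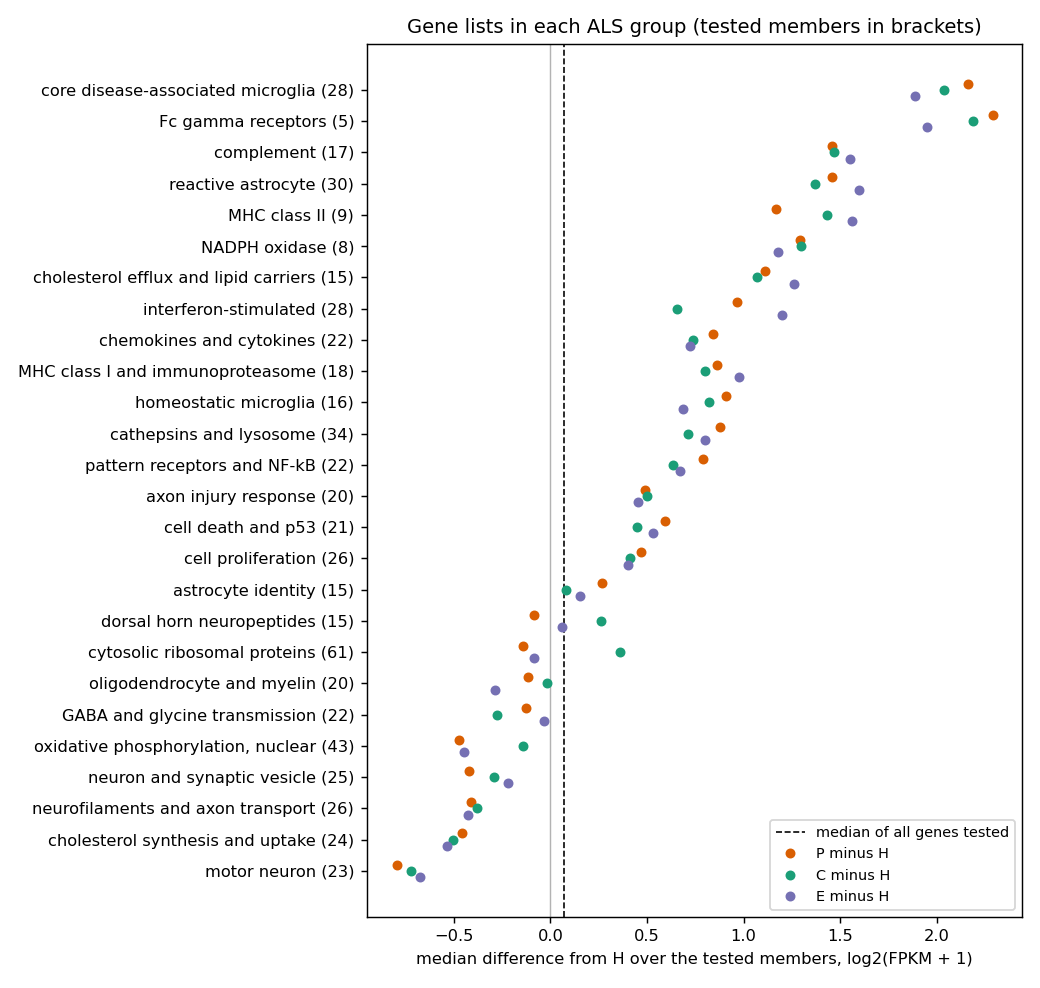
Median difference from H over the tested members of 26 gene lists, on the log2(FPKM + 1) scale, with 1 point for each of P, C and E and the number of tested members in brackets. The dashed line is the median of all genes tested (0.0697). The 3 points of the microglial list lie between 1.89 and 2.16 and those of the motor neuron list between -0.796 and -0.677, while the ribosomal list stands at 0.359 in C and below 0 in P and E.

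Reactive astrocyte genes rose in 27 of 30 cases, 20 consistently, with a median of 1.43. Gfap, the astrocyte intermediate filament, measured 398, 332 and 485 FPKM in H and 1010 to 2110 in ALS, 1.93 ± 0.20 higher (adjusted p = 0.000185), and Vim (vimentin) rose by 3.09 ± 0.28. Serpina3n, an acute-phase protease inhibitor, went from 21 to 31.2 FPKM in H to 214 to 670 in ALS (3.70 ± 0.29), and Timp1, an inhibitor of metalloproteinases, rose by 2.68 ± 0.29. All 9 ALS mice were above the healthy mice in each of these genes. Genes of astrocyte identity were mixed, with 5 of 15 higher, 1 lower and a median of 0.17. The lower one, S100b, missed the threshold in 13 of 25 other settings, among them without H2, H4, P67, C79, C84, C85, E75 or E90. Aqp4, the water channel of astrocyte endfeet, rose by 1.43 ± 0.14 to 186 to 395 FPKM. The glutamate transporter Slc1a3 rose by 0.55 ± 0.08, while Slc1a2, the main one of the cord, stood at 159 to 192 FPKM in H and 154 to 205 in ALS and differed by 0.04 ± 0.08, which was not called (adjusted p = 0.76). The gap junction gene Gja1 rose by 0.60 ± 0.07.

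Motor neuron genes were among the largest falls. Of 23 tested genes, 13 were lower and 1, Spp1, higher, with a median of -0.71. Chodl, a marker of fast motor neurons (chromosome 16, 78930948 to 78951733), measured 18.1, 14.8 and 7.19 FPKM in H1, H2 and H4 and 1.17 to 2.88 (median 2.20) in ALS. It fell by 2.13 ± 0.23 (adjusted p = 0.000186), by 2.15 in P, 2.15 in C and 2.10 in E, and stayed called in 25 of 25 other settings. H4 had the least Chodl of the healthy mice, and every ALS mouse had less. Mmp9, a protease that fast motor neurons express and slow ones lack, measured 5.02, 4.44 and 2.76 FPKM in H and 1.38 to 2.19 in ALS, a fall of 0.87 ± 0.13 (adjusted p = 0.000992). Sv2b, a marker of slow motor neurons, was called lower as well, by -1.1 to -0.288 over 25 other settings. Its call was lost without H1, without H2 and with the muscle score as a covariate. Esrrg, another gene of slow motor neurons, was not called. Whether fast markers fell more than slow ones was not tested. Kcnj14, an inward rectifier potassium channel of motor neurons, fell by 1.45 ± 0.21 and was called in every other setting. Slc10a4, a vesicle transporter of cholinergic neurons, fell by 1.28 ± 0.27.

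Slc18a3, the vesicular acetylcholine transporter, measured 30.6, 24.5 and 13 FPKM in H and 5.07 to 13.7 in ALS, and was lower by 1.22 ± 0.29 (adjusted p = 0.0131). Chat, the enzyme that makes acetylcholine, stood at 16.6, 11.3 and 6.03 FPKM in H and 3.41 to 8.66 in ALS and was not called, at -0.87 ± 0.29 (adjusted p = 0.0528). Ache, which breaks it down, fell by 0.39 ± 0.11. H4 overlapped the ALS mice in Slc18a3 and Chat, and Chat was called when H4, P74, C84 or E90 was left out, and in 8 of 25 other settings in all. Without H1 or without H2, 5 of the motor neuron genes were called lower instead of 13, and Slc18a3 and Ache were among those lost. With the caudal Hox score as a covariate 20 were lower, and with the skeletal muscle score 2 were.

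Neurofilament genes, which encode the cables of large axons, were all lower. Nefm measured 580, 595 and 320 FPKM in H and 133 to 292 in ALS, lower by 1.09 ± 0.22 (adjusted p = 0.00614), and Nefl fell by 0.78 ± 0.14. Nefh stood at 518, 433 and 220 FPKM in H and 117 to 255 in ALS, 1.04 ± 0.25 lower, with H4 inside the ALS range, and was lost without H1 and without H2. Of 26 genes of neurofilaments and axon transport 14 were lower (median -0.43). Kif5a, a kinesin of axons in which variants cause ALS in people, went from 275 to 336 FPKM in H to 164 to 233 in ALS (fall of 0.64 ± 0.11), and Stmn2, a tubulin-binding protein of growing axons, fell by 0.56 ± 0.11. The count was 7 without H1, 5 without H2, 9 without group E and 8 without a filter on low values. With the muscle score as a covariate it was 0, and Nefl, Kif5a and Stmn2 were among those lost.

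Other lists of neuronal genes had smaller shares called lower. Of 25 synaptic vesicle genes, 10 were lower and 1 consistently so, Vamp1 (median -0.36), and 3 or 2 were lower without H1 or H2, with 6 without C85 or E90. Of 29 voltage-gated channels, 7 were lower (median -0.20), and 2 or 1 without H1 or H2 and 12 after median-ratio scaling. The glutamate list had 1 of 27 higher (3.7%) and 2 lower (7.41%). The GABA and glycine list had 2 of 22 higher (9.09%) and 3 lower (13.6%). Of all genes tested, 16.4% were higher and 4.19% lower. Without P74 these lists had 6 and 8 lower, and the GABA and glycine list had 8 lower after median-ratio scaling and 7 with the caudal Hox score as a covariate. None of 15 dorsal horn neuropeptide genes was called by limma in either direction (median 0.06), and 0 had an unadjusted p under 0.05 or were called by limma-voom. Of 15 calcium buffer genes 6 were lower, and 1 was without H2. With the muscle score as a covariate none of the synaptic vesicle or calcium buffer genes and 1 channel gene were lower. Pvalb (parvalbumin), which is expressed by interneurons, sensory axons and muscle, measured 217, 132 and 95.6 FPKM in H and 41.1 to 80.3 in ALS, a fall of 1.34 ± 0.22 (adjusted p = 0.00204).

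Among the largest consistent falls, Rspo2, a secreted amplifier of Wnt signalling, fell by 1.03 ± 0.09 (adjusted p = 4.81e-05), from 3.15 to 4.07 FPKM in H to 0.988 to 1.76 in ALS. Tesc (tescalcin), a calcium-binding protein, fell by 1.02 ± 0.11. Smyd1, a methyltransferase of muscle, measured 10, 5.14 and 2.62 FPKM in H1, H2 and H4 and 0.989 to 2.38 in ALS, and Sh3bgr, also expressed in muscle, fell by 1.27 ± 0.19. The healthy values of Smyd1 ran in the order of the muscle score of the libraries. With that score as a covariate Smyd1, Pvalb, Slc10a4 and Nefm were no longer called, while Sh3bgr, Chodl, Kcnj14, Rspo2, Tesc and Mmp9 still were.

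Genes of axon injury rose in the same cords, with 10 of 20 higher (median 0.52), 6 without H2 and 5 with the muscle score as a covariate. Sprr1a, a small protein that injured neurons induce, was the most uniform consistent gene. It measured 0.444, 0.135 and 0.646 FPKM in H and 4.42 to 7.40 (median 5.98) in ALS, rose by 2.31 ± 0.14 (adjusted p = 8.51e-06), and its rise was 11.9 times the SD over the 9 ALS mice. Atf3, a transcription factor of the injury response, measured 3.21 FPKM in H1 and 0.582 and 0.51 in H2 and H4, and 7.29 to 14.2 in ALS (2.38 ± 0.27). Ecel1, a peptidase induced in injured neurons, rose by 0.61 ± 0.09 when pooled, with a difference of 0.34 in C that was not called.

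**Figure D3:**
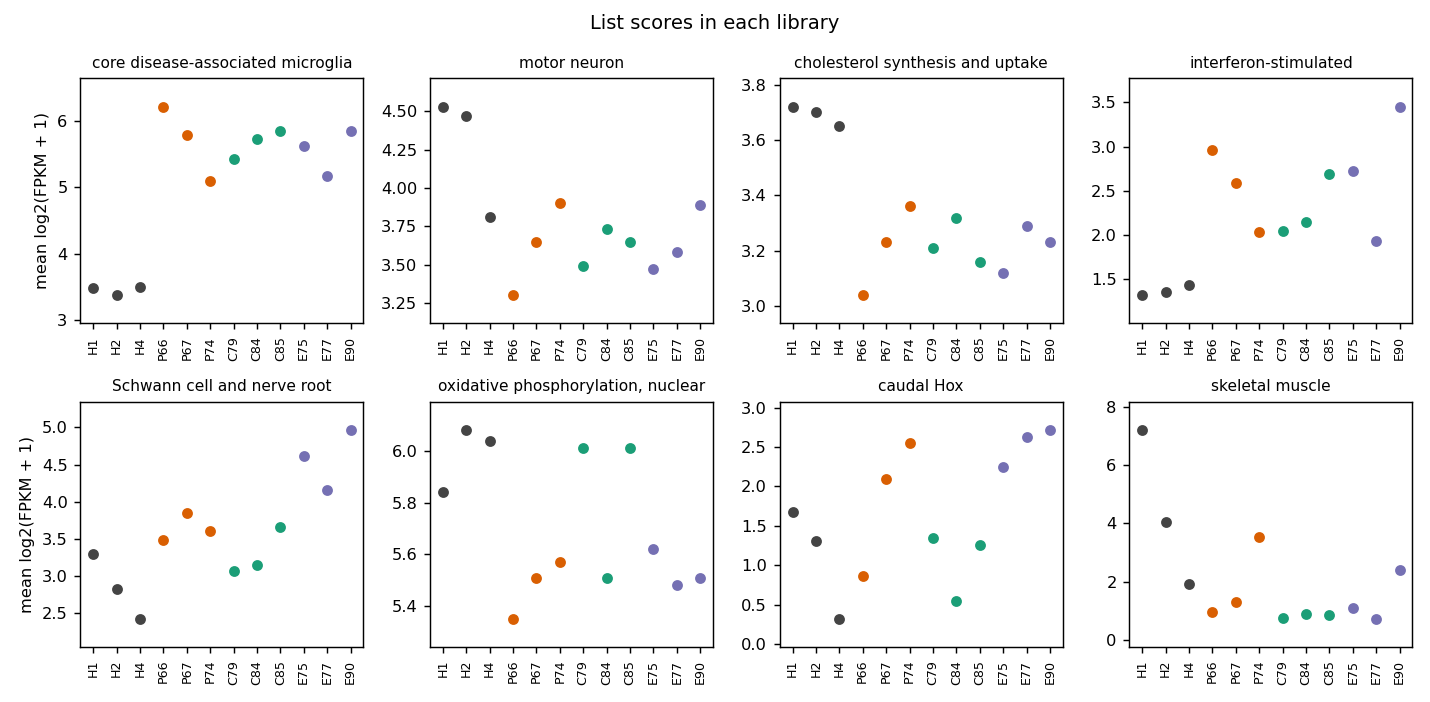
Mean log2(FPKM + 1) of the tested members of 8 gene lists in each of the 12 libraries, each panel with its own scale that does not start at 0. The microglial list separates H (3.38 to 3.50) from all ALS libraries (5.09 to 6.21), the motor neuron score of H4 (3.81) lies inside the ALS range (3.30 to 3.90), and the interferon score varies from 1.93 to 3.45 among ALS mice.

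Interferon-stimulated genes rose in 19 of 28 cases (median 0.94) and 6 were consistent. The mean of the list was 1.32, 1.35 and 1.44 in H and 1.93 (E77) to 3.45 (E90) in ALS, with both extremes in group E. All ALS mice were above all healthy ones for this score and for 25 of the 28 genes, against 14.1% of all genes. Ifit3, an antiviral RNA-binding protein, stood at 4.34 to 4.75 FPKM in H and 8.20 to 73.4 in ALS and was called only in the pooled comparison, at 1.94 ± 0.56 (adjusted p = 0.0345). Ifit1 was likewise gained by pooling (1.57 ± 0.47, adjusted p = 0.0381). Both were lost in 12 and 13 of 25 other settings, without H1, H2 or H4 among them. The count of the list was 10, 8 and 11 without H1, H2 and H4, and 4 with the muscle score as a covariate. Ifitm3, a membrane protein that blocks viral entry, was consistent at 1.95 ± 0.26, as was Irf8, a transcription factor of microglia, at 1.80 ± 0.18.

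Oxidative phosphorylation genes of the nucleus were lower in 12 of 43 cases, none consistently, with medians of -0.47 in P, -0.14 in C and -0.45 in E. The list mean was 5.84 to 6.08 in H, 6.01 in C79 and C85 and 5.35 to 5.62 in the other 7 ALS libraries, and C79 and C85 lay among the healthy mice and C84 did not. Atp5b, a subunit of ATP synthase, measured 267 to 309 FPKM in H and 187 to 254 in ALS and fell by 0.35 ± 0.09 (adjusted p = 0.0223), but not past the threshold without H1, H2 or group E. The count was 1 without H2, 22 without C84, 7 without E90 and 3 without a filter on low values. It was 5 without group P, 32 without group C and 2 without group E. It was 38 after median-ratio scaling, 22 with the caudal Hox score as a covariate and 0 with the muscle score. Of 61 cytosolic ribosomal protein genes tested, 1 was called (Rplp0, higher by 0.50 ± 0.11, lost without H2), the medians were -0.14 in P, 0.36 in C and -0.08 in E, and 26 of the 61 had an unadjusted p under 0.05 between the 3 ALS groups, against 9.69% of all genes. Their mean was 6.16 in C79 and 6.28 in C85, above the 5.26 to 5.96 of H, and 5.59 in C84.

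Of 22 superoxide and peroxide enzymes, 5 were higher and 1 lower (median 0.10), close to the shares of all genes. The list includes the superoxide dismutases, which the carbon dots act like according to the series title. Prdx6, a peroxidase of astrocytes, rose by 1.28 ± 0.16 from 51.4 to 59.4 FPKM in H to 98.2 to 210 in ALS (adjusted p = 0.000413), and Gpx8, a peroxidase of the endoplasmic reticulum, rose by 1.38 ± 0.21. Gpx1, the cytosolic glutathione peroxidase, differed by 0.37 in P, 0.77 in C and 0.18 in E. It passed in C (adjusted p = 0.00771) and pooled (0.44 ± 0.12, adjusted p = 0.0208), and the pooled call was lost without H1, H2 or group C. Sod2, the mitochondrial manganese dismutase, measured 39.4, 39.1 and 32.8 FPKM in H and 24.5 to 34.7 in ALS, lower by 0.36 ± 0.10 (adjusted p = 0.0246), with an overlap through H4. It was lost without H1 and without H2. Sod1, the copper-zinc dismutase mutated in some families with ALS, stood at 149, 219 and 244 FPKM in H and 140 to 273 in ALS and was not called (-0.23 ± 0.18, adjusted p = 0.403). The count of higher enzymes was 3 without H1, without H2, without group C and after median-ratio scaling, and 2 with the muscle score as a covariate.

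Of 24 NRF2 targets and glutathione genes 6 were higher (25%, against 16.4% of all genes), and 2 with the muscle score as a covariate. Hmox1, which breaks down heme, rose by 1.71 ± 0.20 from 3.04 to 3.86 FPKM in H to 9.32 to 24.5 in ALS, and Nfe2l2, which encodes NRF2 itself, by 0.999 ± 0.112 (log2). Slc11a1, a metal transporter of the phagosome, rose by 2.10 ± 0.17. Among 8 of 19 iron and metal genes that were higher (3 with the muscle score as a covariate), the ferritin light chain Ftl1 rose by 1.45 ± 0.23. Ftl1, the ribosomal proteins, the MHC genes and the globins have near-identical copies, so their values depend on how shared reads were counted, which the labels and notes do not state.

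Proliferation genes were higher in 21 of 26 cases, 12 consistently, at a low level (median difference 0.41). Top2a, which untangles DNA in dividing cells, measured 0.298, 0.157 and 0.167 FPKM in H and 1.05 to 2.19 in ALS, and rose by 0.93 ± 0.13 (adjusted p = 0.000893). All 9 ALS mice were above the healthy mice. The cyclin gene Ccnd1 rose by 1.20 ± 0.17, and the count was 12 without H2. Of 21 cell death and p53 genes, 13 were higher and none lower (median 0.51), including the death receptors Tnfrsf1a (1.60 ± 0.19) and Fas (0.99 ± 0.15) and the survival gene Bcl2 (0.54 ± 0.07). Stress genes of the endoplasmic reticulum were higher in 10 of 25 cases, with Ddit3 at 0.51 ± 0.08 and Trib3 at 0.72 ± 0.13, and in 6 without H1, 5 without H4 and 5 after median-ratio scaling. Of 19 chaperones 1 was higher, Hspb1, and of 26 proteasome subunits 1 was lower, Psmc5, both near or below the share of all genes. Immediate early genes were higher in 8 of 15 cases, Fos by 1.02 in P, 1.08 in C and 1.62 in E (unadjusted p = 0.00735 between groups). With the muscle score as a covariate, 4 proliferation, 4 cell death, 0 endoplasmic reticulum stress and 5 immediate early genes were higher.

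Of 20 oligodendrocyte and myelin genes 1 was higher (5%) and 3 were lower (15%), against 16.4% and 4.19% of all genes. The median was -0.14, and 9 were lower after median-ratio scaling. 10 of the 20 had an unadjusted p under 0.05 between P, C and E, against 9.69% of all genes. The list stood lowest in E (median -0.29). Mog, a myelin surface protein, fell by 0.45 ± 0.09 when pooled, differed by -0.44 in P, -0.18 in C and -0.71 in E, and was not called without group E. Oligodendrocyte precursor genes were higher in 6 of 13 cases, such as Gpr17 (0.49 ± 0.09), with 3 without H4, 3 after median-ratio scaling and 1 with the muscle score as a covariate.

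The 5 genes that differed between the ALS groups at an adjusted p under 0.05 were Lcn2, Scn7a, Sostdc1, Tmem125 and the gene model Gm10479. On simulated data with no difference set between these groups, the same test called 2 genes. Lcn2 (lipocalin-2, an iron-scavenging protein of reactive astrocytes, chromosome 2, 32384633 to 32388252) measured 1.02, 0.395 and 0.794 FPKM in H, 2.87, 2.42 and 1.41 in P, 2.31, 2.05 and 2.97 in C and 6.93, 12.9 and 15.3 in E. It was consistently higher than in H, and every E mouse was above every P and C mouse (adjusted p = 0.0459 between the groups). Scn7a, a sodium channel of Schwann cells and astrocytes, differed from H by 0.86 in P, 0.33 in C and 1.81 in E, and the C difference was not called. Sostdc1, a secreted inhibitor of BMP and Wnt signals, differed by 0.86 in P, 0.23 in C and 2.09 in E, with its lowest ALS mouse inside the healthy range. Tmem125, a membrane protein of unsettled role, differed by -0.34 in P, 0.02 in C and -0.61 in E. In a fit with 1 mean for all ALS mice, Lcn2, Scn7a, Sostdc1 and Tmem125 were not called against H. Gm10479 differed by -1.20 in P, 0.55 in C and -0.19 in E and was not called when pooled.

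The next most uneven lower genes given here had the same order of groups, with C nearest to H and E furthest. They were chosen for this unevenness, so the order is a description. Tppp3, a tubulin-binding protein, differed by -0.67 in P, -0.11 in C and -0.75 in E. The protease Tmprss5 differed by -0.50, -0.15 and -1.04. Rab37, a vesicle GTPase, was lower in all 3 groups and consistent, at -0.67, -0.31 and -0.94.

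**Figure D4:**
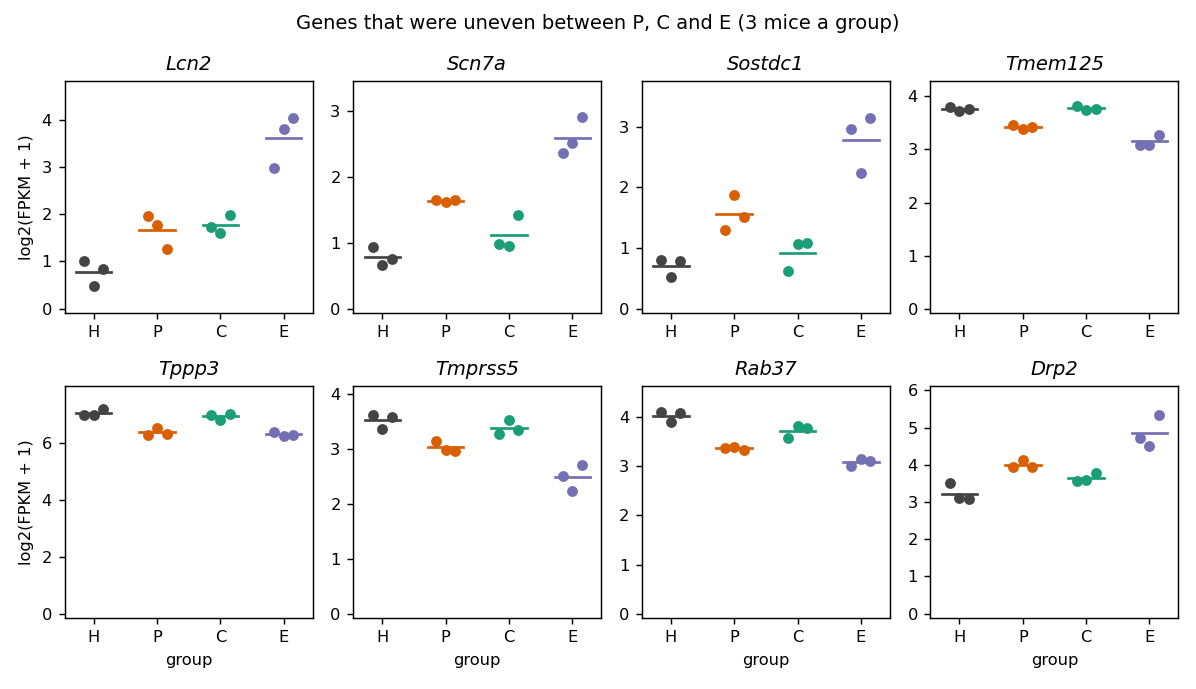
Levels of 8 genes that were uneven between P, C and E, as log2(FPKM + 1), with 1 point per mouse, a bar at the group mean and each axis including 0. Lcn2 is highest in the 3 E mice (6.93 to 15.3 FPKM), Tppp3 differs from H by -0.11 in C and by more in P and E, and the 3 E mice are also highest in Drp2 (21.7 to 39.3 FPKM).

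Schwann cells, which wrap axons of the nerve roots outside the cord, were marked by 13 tested genes. 9 were higher when pooled and none consistently, with medians of 0.77 in P, 0.35 in C and 1.81 in E. 11 of the 13 had an unadjusted p under 0.05 between the ALS groups, against 9.69% of all genes. Drp2, a dystrophin-related protein of Schwann cells, measured 10.4, 7.58 and 7.41 FPKM in H1, H2 and H4 and 10.9 to 39.3 (median 14.5) in ALS, with E at 25.5, 21.7 and 39.3. All 9 ALS mice lay above the healthy ones, the C mice closest to them. Ncmap, a protein of peripheral myelin, measured 2.35, 1.35 and 0.935 FPKM in H and 1.80 to 14.7 in ALS, with E at 11.7, 6.80 and 14.7, and here healthy and ALS mice overlapped. The list mean was 2.42 to 3.29 in H and 4.15 to 4.96 in E. The count of 9 was 4 without H2, 3 without group E and 0 in the fit with 1 mean for all ALS mice. How much nerve root each sample held was not tested.

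Matrix genes of the meninges were higher in 14 of 23 cases (median 1.07), with 7 without H2, 9 without group E and 6 with the muscle score as a covariate. Ogn, a proteoglycan of connective tissue, stood at 6.20, 2.93 and 0.496 FPKM in H and 9.14 to 113 in ALS, and rose by 2.69 in P, 2.20 in C and 4.38 in E. Border-associated macrophage genes were higher in 7 of 12 cases, none consistently, with Mrc1 at 0.103 to 0.309 FPKM in H and 0.351 to 3.24 in ALS, in 3 and 4 without H2 and H4, and in 0 with the muscle score. Endothelial genes were higher in 1 of 15 cases, Vwf, and pericyte genes in 6 of 11, in 1 and 2 without H2 and H4, and in 2 with the muscle score. Of 7 T and NK cell genes 5 were higher at very low levels (Cd8a 0.142 to 0.380 FPKM in ALS, 0 to 0.03 in H), and 1 to 3 without H1, H2, P66, P67, C84, C85 or E75, and 0 with the muscle score. None of 8 neutrophil genes was called by limma or limma-voom, and 0 had an unadjusted p under 0.05.

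Pooling gave 373 higher genes (2.06%) and 184 lower ones (1.02%) that no single group reached against H. The lower genes with the largest differences among these were all of muscle. Acta1, skeletal muscle actin, measured 796, 46.9 and 6.25 FPKM in H1, H2 and H4 and 0.218 to 35.3 in ALS, -4.25 ± 1.28 (adjusted p = 0.0415). The myosin Myh1, the troponins Tnnt3 and Tnni2 and the oxygen store Mb followed the same libraries. H1 held most of this RNA, and the 5 calls were each lost in 14 to 17 of 24 or 25 other settings, among them without H2 for all 5. Of 9 erythroid genes, 5 were lower, and 0 with the muscle score as a covariate. Hbb-bs, a beta globin, measured 628, 195 and 1270 FPKM in H and 52.1 to 191 in ALS, with no overlap but with wide differences among the healthy mice. The Hbb-bs call was lost with the muscle score and without H4, P66 and C84.

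**Figure D5:**
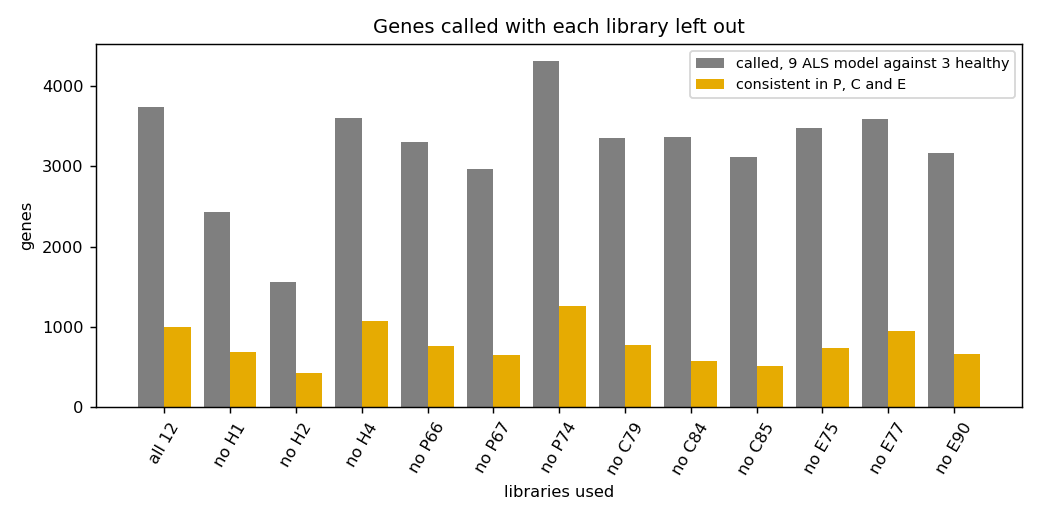
Number of genes called in the pooled comparison and number consistent in P, C and E, with all 12 libraries and with each left out in turn, on an axis from 0. The pooled count runs from 1555 without H2 to 4302 without P74 around 3733, and the consistent count from 426 to 1265 around 1002.

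Leaving out H2 gave 1555 called and 426 consistent genes, and leaving out H1 gave 2425 and 684. Of the consistent genes, 958 of 1002 were still called in the pooled comparison without H2 and 999 without H1, and none changed direction in any setting. The share of higher calls was 79.6% of all calls and 90.5% of consistent ones. After median-ratio scaling, which moved the median difference of all genes to -0.00344, these shares were 53.2% and 74.2%. With the skeletal muscle score as a covariate 686 genes were called and 35 were consistent, and 510 of the 1002 consistent genes were still called when pooled. Healthy mice had higher scores than most ALS mice, so muscle content and group cannot be fully told apart in 12 libraries. Without H4, P66 and C84 the interferon list had 9 genes higher, the endoplasmic reticulum stress list 3, the meningeal matrix list 8, the Schwann cell list 4, the border-associated macrophage list 3 and the ribosomal list 7, and the channel list had 12 lower and the erythroid list 1.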

How the data were processed

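Poly(A) RNA of whole lumbar cord was sequenced, 1 library per mouse and 3 mice per group. The submitters' processing notes name cutadapt, HISAT2 and featureCounts, with GRCm38 as the build. No version, role or strand setting is stated there, so the reads of overlapping or antisense genes cannot be separated. The authors deposited 1 table per group with 33906 gene identifiers and without a named unit. That the deposited values are FPKM was worked out from the numbers. Multiplied by GENCODE M21 exon length, 96.3 to 96.8% of low values were whole multiples of 1 step per library, and the steps gave scaling totals of 15.5 to 18.4 M reads. Recovered reads summed to 107 to 108% of those totals, for a reason not settled here.

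From these values, a gene was tested when 3 or more libraries held 10 or more recovered reads (as CPM of the median library) and the sum was 15 or more. 18118 genes passed, 15788 did not, and 945 were listed at 0 throughout. limma 3.58.1 in R 4.3.3 was fitted to log2(FPKM + 1) of all 12 libraries with 1 mean per group (8 residual degrees of freedom) and trended, robust moderation. Fold changes on that scale understate changes of low genes. Tests were two-sided, with Benjamini-Hochberg adjustment over all genes tested and a threshold of 0.05. The median SE was 0.0946. Levels are FPKM. Differences are ± SE, each from 9 ALS and 3 healthy mice. A list mean is the mean over its tested members. No scaling was added, and a median-ratio scaling was an alternative.

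The members, the 60 gene lists and the alternatives were chosen with earlier results of these data known. Genes were named by rule: the 10 largest differences in each direction among consistent genes whose groups did not overlap, up to 3 called members of smallest adjusted p per list, the 6 most and 5 least uniform, the 5 largest gained by pooling, and the superoxide and motor neuron genes. The most uniform were those with the largest difference relative to the SD over the ALS mice, at 5 FPKM or more. Well-known markers outside that rule (Trem2, Cd44, Axl, Apoe, C1qa, C3, Cx3cr1, P2ry12, Tmem119, Gfap, Vim, Slc1a2, Idi1, Srebf2, Ank, Fth1 and S100b) were added after their values were seen. Some genes are not reported here. On simulated data for this comparison (17816 genes), all of 100 genes changed by 4-fold were called and counted as consistent, with 9 false pooled calls. The changed genes had a mean of 100 reads or more, and the dispersion was the same for all genes.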

Additional observations from a re-analysis of the deposited data

Results flagged for a closer look

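In 185 results, genes and list means, the 9 ALS mice were searched for 1 library far from the rest (Dixon's test at 95%), and 13 were found. Chance flags about 1 in 20. 10 of the 13 were P66. It had the highest P2ry12 (21.3 FPKM), Aqp4 (395 FPKM) and Ddx3y (22.7 FPKM) of the ALS mice and the lowest Nefm (133 FPKM), Ache (26.1 FPKM), Vamp1 (56.8 FPKM) and Atp5b (187 FPKM). Its list mean on the log2(FPKM + 1) scale was lowest for neurofilaments and axon transport (6.05) and for synaptic vesicle genes (5.52), and highest for oligodendrocyte precursors (3.55). P66 also had the lowest motor neuron mean (3.30) and the highest mean of disease-associated microglia (6.21). P74 had the lowest Lgals3 (12 FPKM) and the lowest pericyte mean (2.11), and E90 the highest Myh1 (0.882 FPKM).

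P, C and E differed from each other in 5 genes, by limma's F test adjusted over all genes. With no difference set between these groups in simulated data, that test called 2 genes. The adjusted p was 0.0459 for Lcn2, Scn7a, Tmem125 and Gm10479 and 0.0469 for Sostdc1, with n = 3 mice per group.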

How the results depend on the processing

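Of the 3 counts, 3733 genes called, 1002 consistent and 5 different between P, C and E, the first moved by over 1.5 times without a filter on low values (2468) and with the skeletal muscle score as a covariate (686), and the second in the same settings (528 and 35). With 1 library left out, the called count moved by over 1.5 times without H1 (2425) and without H2 (1555). The consistent count did so without H2 (426), P67 (656), C84 (571) and C85 (517). Leaving out each library in turn gave 1555 to 4302 called, 426 to 1265 consistent and 0 to 22 different between groups. The last count was 0 with a pseudocount of 0.1, after median-ratio scaling, without group C, without group E and with the caudal Hox score as a covariate, 1 with limma-voom on the recovered reads, 2 without H4, P66 and C84, and 15 without group P. The cause was not tested. With limma-voom 3910 genes were called and 1170 were consistent, and with the caudal Hox score 4889 and 1483. A single mean for all ALS mice gave 3554. The refits without H4, P66 and C84 and with the muscle score were added after the data were seen. Without those 3 libraries 3375 genes were called and 792 were consistent. Signs turned for genes that were not called. Sod1 stood at 0.0223 and Slc1a2 at -0.0473 without H4, P66 and C84, and Slc1a2 at -0.0757 after median-ratio scaling, at -0.0401 without group P and between -0.0254 and 0.107 with each library left out. Fth1 stood at 0.0724 without H4, P66 and C84, at 0.0116 with the caudal Hox score and between -0.367 and 0.0745 with each library left out. Gm10479 stood at 0.176 without group P. No paired analysis was possible because no mouse number is shared between groups. With 3 healthy mice, differences under the median 95% interval of 0.207 to either side could mostly not be called.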
